A study of Mus musculus with 12 samples.

Results

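The genes described here are Camp, which encodes the cathelicidin antimicrobial peptide, and the acute-phase protein genes Orm1, Orm2, Hp, Ptx3, Lcn2, Saa3 and C3. They were chosen with the ratios of 3 drugs over vehicle on these same arrays in view, so those ratios are given as a description, without a test. Of the 8 genes, 7 had a spot, 1 spot each, among the 18218 spots with a single gene name, which cover 16504 genes. C3 had no spot under its symbol, gene number or accession in the annotation used and was not analysed here. Saa3 lacked values on several arrays, so 6 of the genes entered the statistical fit.

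RNA of mouse cells in culture, given pioglitazone, telmisartan or irbesartan, was hybridised together with RNA of vehicle-treated cells on 4 arrays per drug, 12 in all. Pioglitazone is a thiazolidinedione agonist of the nuclear receptor PPAR-gamma. Telmisartan and irbesartan share a biphenyl core, block the angiotensin type 1 receptor, and are named in the study's title as activators of PPAR-gamma. Per the labels, the RNA on each side was a pool from 3 cultures. The groups are therefore pioglitazone over vehicle, telmisartan over vehicle and irbesartan over vehicle, and no genotype or other agent is given for any of them. The labels used here do not give the cells, their strain, the doses or the treatment time, nor how many separate pools stood behind the 4 arrays of a drug or behind the vehicle. P-values then measure how much these arrays differ, which may be technical variation. Dyes were swapped: arrays 1 and 3 carried the drug's RNA in channel 1, while for arrays 2 and 4 it was channel 2. Empty spots made up 7.47% to 20.17% of an array, the table holds ratios and no intensities, and the number of arrays limits the precision.

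Every value below is a log2 ratio of drug over vehicle, on the assumption that the deposited numbers are log10 ratios. The files state neither the unit nor which channel is the numerator. With another log base the sizes, percents of vehicle, fold changes and counts past 1.5-fold below would differ, but not the signs. The likely reading is channel 2 divided by channel 1: with pioglitazone it puts 14 of 19 measured PPAR-gamma target genes above 0 and 5 of 7 measured genes known to be repressed by thiazolidinediones below 0. By at least 1.5-fold, 9 targets lay above 0 and 3 below, while 3 repressed genes lay below 0 and 0 above. The 3 targets below were Lpl (-1.12), Adipoq (-0.95) and Cidec (-0.73), which go against this reading. None of the 8 genes was in these lists. The lists were chosen with earlier results of these data known, so they are no independent check of the direction. Under the other reading every fall described below would be a rise of the same size.

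The acute-phase response is a change in secreted proteins that follows infection or injury. Interleukin-1, tumour necrosis factor and interleukin-6 act through NF-kappaB, STAT3 and C/EBP factors on the genes of these proteins. The liver is the main source, but fat cells and fibroblasts also secrete several of them, among them haptoglobin, orosomucoid, serum amyloid A3, lipocalin 2 and complement C3. Cathelicidin is stored in neutrophil granules and is also made by epithelia, and in mouse skin by preadipocytes during infection.

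The stretches upstream of 3 genes with lower ratios, Camp, Orm2 and Ptx3, and of Lcn2, whose ratios stayed near 0, are shown because these genes had different ratios on the same arrays. The sequences are the 250 bases before the annotated start of each gene, 5′ to 3′ on the gene's strand, from RefSeq's GRCm38.p6 annotation. By symbol, 6 of the 8 genes matched it, and Hp and Orm1 did not. Capitals mark matches on either strand to TTNNGCAA, a core of C/EBP sites, and to TATAAA, the TATA box.
Camp, chr9:109849457-109849706, minus strand: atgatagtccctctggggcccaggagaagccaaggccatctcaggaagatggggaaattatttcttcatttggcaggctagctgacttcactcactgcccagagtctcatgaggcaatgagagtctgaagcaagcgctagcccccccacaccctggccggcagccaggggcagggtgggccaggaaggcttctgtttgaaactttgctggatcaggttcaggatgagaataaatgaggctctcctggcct
Orm2, chr4:63362199-63362448, plus strand: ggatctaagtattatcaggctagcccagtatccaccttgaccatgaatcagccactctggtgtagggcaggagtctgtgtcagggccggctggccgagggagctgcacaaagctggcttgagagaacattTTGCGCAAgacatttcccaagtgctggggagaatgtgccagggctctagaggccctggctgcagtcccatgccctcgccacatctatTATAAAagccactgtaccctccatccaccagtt
Ptx3, chr3:66219637-66219886, plus strand: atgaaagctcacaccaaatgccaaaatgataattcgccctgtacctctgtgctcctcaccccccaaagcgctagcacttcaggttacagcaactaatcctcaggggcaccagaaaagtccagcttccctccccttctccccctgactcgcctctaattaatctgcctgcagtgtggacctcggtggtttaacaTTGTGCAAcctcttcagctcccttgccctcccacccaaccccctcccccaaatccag
Lcn2, chr2:32387740-32387989, minus strand: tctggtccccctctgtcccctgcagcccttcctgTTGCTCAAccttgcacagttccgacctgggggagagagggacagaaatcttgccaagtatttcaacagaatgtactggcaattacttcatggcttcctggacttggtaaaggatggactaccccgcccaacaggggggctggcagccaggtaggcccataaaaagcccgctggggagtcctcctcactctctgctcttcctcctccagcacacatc

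TTNNGCAA was found once in the windows of Orm2, Ptx3, Lcn2, Saa3 and C3 and not in that of Camp. The matches begin 120 bases before the start in Orm2, 57 in Ptx3, 216 in Lcn2, 99 in Saa3 and 45 in C3. Of 32851 windows of this length in the RefSeq table, 9.6% hold this motif. TATAAA was found in Orm2, 33 bases before the start, and in 12.4% of all windows. TTCNNNGAA, a STAT motif, and the kappaB consensus of NF-kappaB were found in none of the 6 windows, and in 7.0% and 3.9% of all windows. No pair of these matches overlapped. The C/EBP motif thus stands in genes with lower ratios (Orm2, Ptx3) and in Lcn2, and it is not in Camp. The motifs were chosen after the sequences had been seen, and a match describes the letters only.

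Camp had the lowest ratio of all 14808 tested features with pioglitazone and with telmisartan, and the second lowest with irbesartan. With pioglitazone the 4 arrays read -2.77, -3.31, -3.20 and -3.37. With telmisartan they read -1.94, -1.22, -1.71 and -1.88, and with irbesartan -1.27, -1.48, -1.50 and -1.56. All 12 values lie below 0, the pioglitazone arrays lie below every other array, and those of telmisartan and irbesartan overlap. The fitted ratios were -3.16 ± 0.12 (SE, n = 4), -1.69 ± 0.12 and -1.45 ± 0.12, which correspond to 11.2%, 31.0% and 36.5% of the vehicle level.

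Orm1 and Orm2 encode orosomucoid, or alpha-1-acid glycoprotein, a plasma protein that binds basic drugs and modulates immune cells. They are near-identical neighbours on chromosome 4 with a further copy, Orm3, between them, so their spots may each detect RNA of the other copies. Orm1 read -1.19, -1.54, -1.32 and -1.42 with pioglitazone, -0.91, -0.98, -0.93 and -1.02 with telmisartan, and -0.33, -0.64, -0.31 and -0.64 with irbesartan. The arrays of the 3 drugs do not overlap for Orm1. Its fitted ratios were -1.37 ± 0.04, -0.96 ± 0.04 and -0.48 ± 0.04 (SE, n = 4 each).

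Orm2 read -1.18, -1.71, -1.20 and -1.65 with pioglitazone. It read -0.90, -1.18, -0.93 and -1.17 with telmisartan, and -0.39, -0.77, -0.32 and -0.78 with irbesartan. Arrays with the drug in channel 2 were lower than those with it in channel 1 for each drug, by 0.49, 0.26 and 0.42 in the order of pioglitazone, telmisartan and irbesartan. Because of this dye shift the pioglitazone and telmisartan arrays touch, but within either channel order all 3 drugs are apart. Fitted ratios were -1.43 ± 0.03, -1.04 ± 0.03 and -0.56 ± 0.03. Orm2 minus Orm1 lay between -0.23 and 0.12 on all 12 arrays, so the spots of the pair read close to each other.

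Hp encodes haptoglobin, which binds free haemoglobin. It read -1.22, -1.26, -1.07 and -1.25 with pioglitazone, -1.22, -1.295, -1.26 and -1.26 with telmisartan, and -1.035, -1.16, -1.01 and -1.10 with irbesartan. Unlike Camp and the Orm genes, Hp had similar ratios with the 3 drugs, and the pioglitazone arrays overlap with both other sets. Fitted ratios were -1.20 ± 0.03, -1.26 ± 0.03 and -1.08 ± 0.03, or 43.6%, 41.8% and 47.4% of the vehicle level.

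Ptx3 encodes pentraxin 3, a soluble pattern receptor of the pentraxin family that is made locally by stromal and myeloid cells and binds complement C1q. It read -0.97, -1.12, -1.03 and -1.09 with pioglitazone, -0.90, -0.63, -0.87 and -1.0002 with telmisartan, and -0.41, -0.37, -0.39 and -0.34 with irbesartan. The irbesartan arrays lie above all others, and telmisartan array 4 reaches into the pioglitazone range. Fitted ratios were -1.05 ± 0.05, -0.85 ± 0.05 and -0.38 ± 0.05.

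Lcn2 encodes lipocalin 2, which withholds iron from bacteria by binding their siderophores. It read 0.10, 0.08, 0.14 and 0.24 with pioglitazone, so all 4 arrays lie slightly above 0. With telmisartan it read -0.07, -0.21, 0.11 and -0.06, and with irbesartan -0.11, -0.12, -0.10 and 0.05. Lcn2 was thus no part of the fall seen at the Camp, Orm, Hp and Ptx3 spots, and its fitted ratios were 0.14 ± 0.05, -0.06 ± 0.05 and -0.07 ± 0.05.

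Saa3 encodes serum amyloid A3, the serum amyloid A form made outside the liver in mice. With pioglitazone it read -0.41, -0.22 and -0.36 on arrays 1, 2 and 4, and with irbesartan -0.62, -0.53 and -0.63 on arrays 1, 2 and 4. With telmisartan only array 4 had a value, 0.59, above 0. The arrays without a value were pioglitazone array 3, telmisartan arrays 1, 2 and 3 and irbesartan array 3, and the reason for the empty cells is not given in the sources used here. Saa3 was not tested because of them. No member shared its deposited ratio exactly with another named spot on any array.

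**Figure D1:**
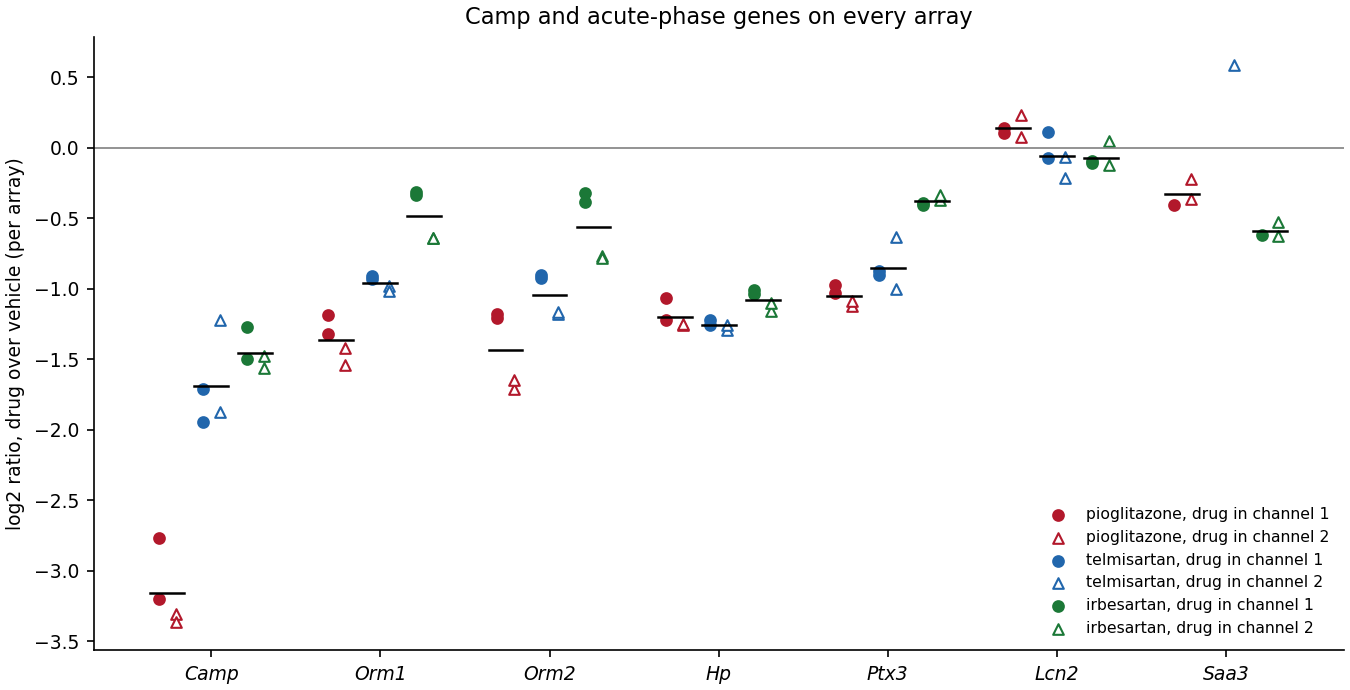
Log2 ratio of drug over vehicle on each array for the 7 measured genes. Filled circles have the drug in channel 1, open triangles in channel 2, and bars are means of 3 or 4 arrays. Camp with pioglitazone sits between -3.37 and -2.77, and Lcn2 stays between -0.21 and 0.24 with all drugs.

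Among all tested features the median ratio was close to 0 with each drug (0.0027, 0.0050 and 0.0016 in the order of pioglitazone, telmisartan and irbesartan). Counted from the lowest ratio, Hp stood 75th with pioglitazone, 7th with telmisartan and 13th with irbesartan. Orm2 stood 32nd, 20th and 208th, Orm1 40th, 29th and 317th, and Ptx3 122nd, 51st and 563rd. For comparison, features lower by at least 1.5-fold with an adjusted p under the threshold of 0.05 made up 3.86% of all features with pioglitazone, 1.51% with telmisartan and 1.18% with irbesartan. Features past the threshold in either direction made up 52.1%, 42.9% and 33.6%. The genes were chosen on this contrast, so nothing is read from their place in it.

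**Figure D2:**
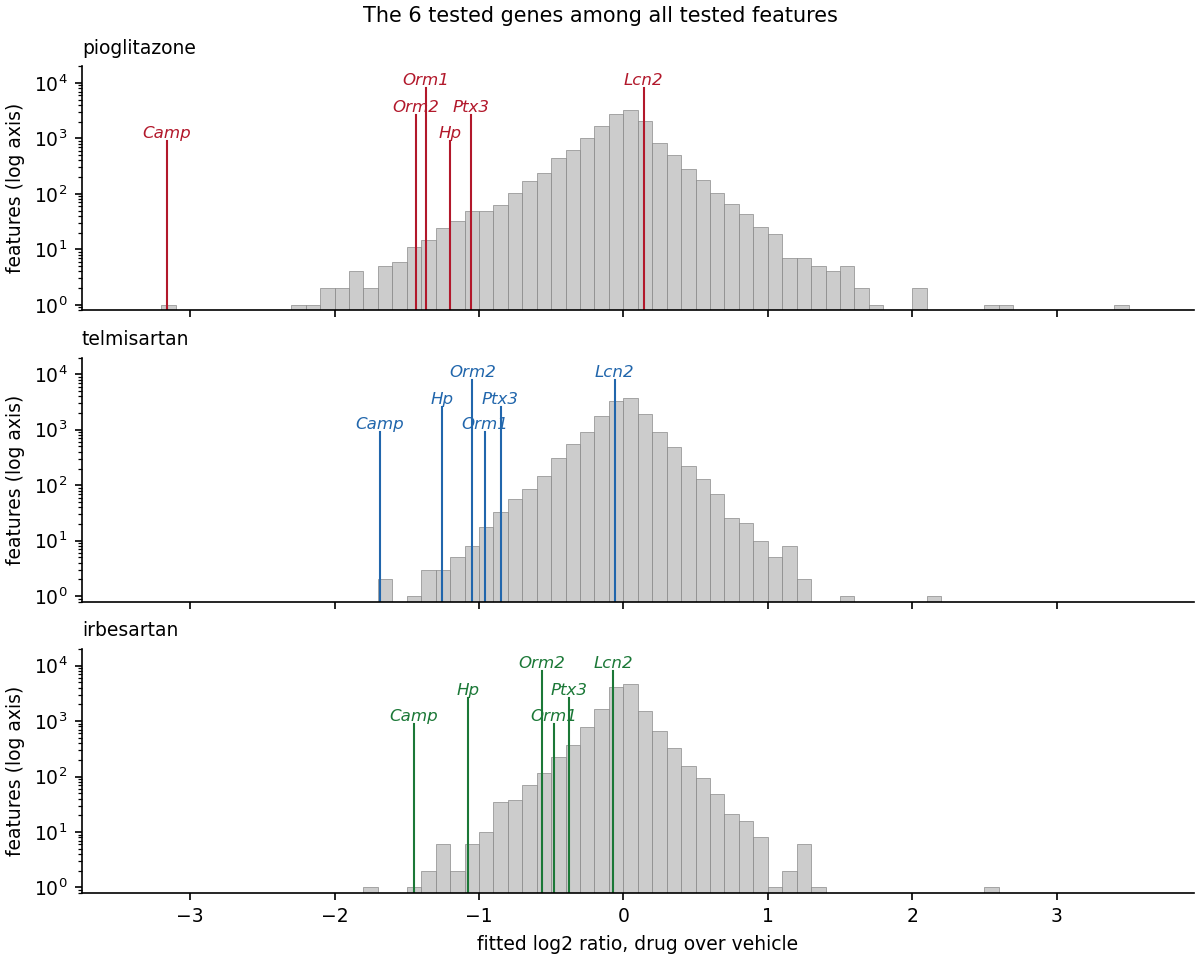
Fitted log2 ratios of all 14808 tested features in bins of 0.1, with the number of features on a log axis, and the 6 tested genes marked by lines, 1 panel per drug. Camp lies at the lower end in each panel, and Lcn2 lies in the centre.

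The drugs were then compared with each other. All pairs of the 3 drugs were compared, but the labels give no doses, so differences are between the treatments as applied. The tests are limma's moderated tests with p-values adjusted by Benjamini-Hochberg over the 14808 features. The arrays are those on which the genes were chosen, so these tests are not independent of that choice. The spots of Orm1 and Orm2 may detect RNA of each other, so the counts of genes below may hold the same signal more than once. Pioglitazone gave lower ratios than telmisartan for Camp, Orm1 and Orm2, and lower ratios than irbesartan for these 3 and Ptx3. Telmisartan gave lower ratios than irbesartan for Orm1, Orm2, Ptx3 and, by a small margin, Hp.

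Between pioglitazone and telmisartan 3 of the 6 genes passed, all lower with pioglitazone, against 16.0% of all features in either direction and 9.38% lower. Camp differed by -1.47 ± 0.17 (SE, adjusted p = 0.000243), which is a further 2.78-fold fall and larger than the spread in either drug. Orm1 differed by -0.41 ± 0.05 (adjusted p = 0.000592) and Orm2 by -0.39 ± 0.05 (adjusted p = 0.000413, or 0.185 with no dye coefficient). Ptx3 did not pass (-0.20, 95% interval -0.36 to -0.05, adjusted p = 0.0761). It passed without telmisartan array 4, at -0.26 (adjusted p = 0.0271). Hp did not pass either (0.06, interval -0.03 to 0.15, adjusted p = 0.383).

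Between pioglitazone and irbesartan 4 of the 6 genes passed, all lower with pioglitazone, against 19.6% of all features in either direction and 11.1% lower. The differences were -1.71 ± 0.17 for Camp (adjusted p = 6.53e-05), -0.89 ± 0.05 for Orm1 (4.04e-06), -0.87 ± 0.05 for Orm2 (2.08e-06) and -0.68 ± 0.07 for Ptx3 (0.000103). The arrays of these drugs do not overlap for any of the 4 genes. On the log2 scale the irbesartan ratio was 45.9% of the pioglitazone ratio for Camp, 35.3% for Orm1, 39.3% for Orm2 and 35.7% for Ptx3, but 89.8% for Hp. Hp differed by -0.12 (interval -0.21 to -0.03, adjusted p = 0.0553), a value on the edge of the threshold. It passed without pioglitazone array 3 (-0.16, adjusted p = 0.0197) and with array weights (-0.13, adjusted p = 0.0192). With arrays scaled to a common spread its sign turned (0.18, adjusted p = 0.0955).

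Telmisartan and irbesartan, the related receptor blockers, differed for 4 of the 6 genes, all lower with telmisartan, against 10.6% of all features in either direction and 4.84% lower. Orm1 was lower with telmisartan by 0.48 ± 0.05 on the log2 scale (a difference of -0.48, adjusted p = 0.000751), Orm2 equally so (-0.48 ± 0.05, adjusted p = 0.000367, or 0.151 with no dye coefficient) and Ptx3 as well (-0.47 ± 0.07, adjusted p = 0.00278). Hp differed by -0.18 ± 0.04 (adjusted p = 0.0172). That call was lost without telmisartan array 3 (0.0574) or irbesartan array 4 (0.0536) and with no dye coefficient (0.151), and with arrays scaled to a common spread the difference turned to 0.05 (adjusted p = 0.664). Camp did not pass between the blockers (-0.24, interval -0.60 to 0.13, adjusted p = 0.423), although it passed without telmisartan array 2 (-0.42, adjusted p = 0.0339). That interval still includes a further 1.5-fold fall with telmisartan, so it does not show that the blockers act alike on Camp.

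Lcn2 differed by 0.20 (interval 0.05 to 0.35, adjusted p = 0.0732) between pioglitazone and telmisartan and by 0.21 (interval 0.06 to 0.36, adjusted p = 0.0545) between pioglitazone and irbesartan. Both lie near the threshold: with the array number as a block they gave 0.0488 and 0.0363. Without telmisartan array 3 they gave 0.0224 and 0.0309, and the second also passed without telmisartan array 2 (0.0272) or irbesartan array 4 (0.0323). The second difference passed as well with a dye coefficient for each drug (0.0412), with array weights (0.0269) and with values on all 12 arrays (0.0487). Between the blockers Lcn2 differed by 0.01 (interval -0.14 to 0.16, adjusted p = 0.955).

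**Figure D3:**
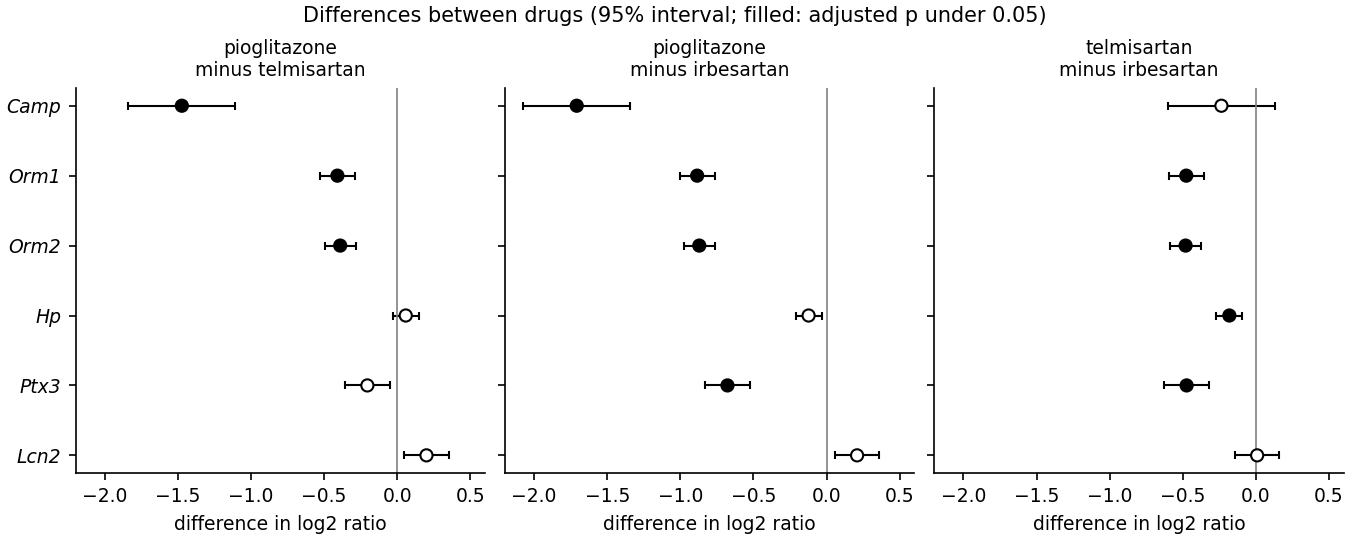
Differences in fitted log2 ratio between drugs for the 6 tested genes, with 95% intervals. Filled points have an adjusted p under 0.05. Camp, Orm1 and Orm2 are lower with pioglitazone than with either blocker, and the Hp points lie within 0.19 of 0.

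The genes also varied among themselves across the 12 arrays, of which 4 belong to each drug and 6 to each channel order. Orm1 and Orm2 had a Pearson r of 0.97, and Orm1 and Ptx3 of 0.90. Camp had an r of 0.86 with Orm1 and 0.81 with Ptx3, but 0.23 with Hp. Lcn2 had an r of -0.81 with Camp. Among 1208 features of other genes with values on all arrays and a mean pioglitazone ratio of at least 0.5 in size, those most like Camp were Hsd11b1, for the enzyme that regenerates active glucocorticoid (r = 0.97, with mean ratios of -1.001, -0.67 and -0.55), Ly6c2 (0.97) and the fibronectin gene Fn1 (0.97). Those most like Orm1 were Aldh1l1 (0.98), the calponin gene Cnn2 (0.98) and the lipogenic regulator gene Thrsp (0.98). Hp had looser matches, led by Parp16 (0.90) and the peroxisomal transporter gene Abcd2 (0.89), and Ptx3 was most like Grtp1 (0.97). These are descriptions over 12 arrays in 3 groups.

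The other genes of the response were read from lists, with several spots of a gene represented by the spot with the most values. Features that passed made up 24.6% higher and 27.5% lower with pioglitazone, 21.1% and 21.7% with telmisartan, and 15.6% and 18.0% with irbesartan, at an adjusted p under 0.05 in the limma fit. Of 26 other acute-phase protein genes 21 were tested. With pioglitazone 4 rose and 5 fell, with telmisartan 2 and 7, and with irbesartan 0 and 7, and none of these calls reached 1.5-fold. Median ratios were 0.03, -0.05 and -0.04. With pioglitazone Mt2, for a metal-binding metallothionein, was at 0.52 ± 0.03 and the haem carrier gene Hpx at 0.46 ± 0.04, both risen (adjusted p = 1.08e-07 and 3.05e-06). The copper carrier gene Cp fell with each drug (-0.24, -0.44 and -0.31). So did the protease inhibitor gene Serpina3n, a member of a multigene family whose copies one spot may not separate (-0.16, -0.36 and -0.38).

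The serum amyloid genes beside Saa3 on chromosome 7 moved little. Saa2 fell with pioglitazone (-0.37, adjusted p = 2.69e-05) and irbesartan (-0.25, adjusted p = 0.000802). It also passed with telmisartan (-0.13, adjusted p = 0.0287), a call lost without telmisartan array 2 (0.0826), 3 (0.141) or 4 (0.0692), with no dye coefficient (0.244), with scaled arrays (0.0708) and with array weights (0.083). Saa1 and Saa4, tested with values on all 12 arrays, were at -0.10 and -0.08 with pioglitazone and did not pass with any drug. Under some alternatives they did: Saa1 passed with pioglitazone without pioglitazone array 1 (-0.13, adjusted p = 0.0435) and with array weights (0.0392). It also passed with pioglitazone when dye-swap pairs were averaged (0.0409). With a dye coefficient for each drug Saa1 passed with pioglitazone (0.0186) and irbesartan (0.0247). Saa4 passed with irbesartan with array weights (0.17, adjusted p = 0.0457). Saa1 and Saa2 are close copies and their spots may share RNA. Whether the spot of Saa3, of the same family, shares RNA with them is not known here. Of the proteins that fall in the acute phase, such as albumin and transferrin, 5 genes were tested, and with pioglitazone 1 rose, 1 fell and 3 did not pass, with a median of 0.06. With telmisartan and irbesartan 0 of the 5 passed (medians 0.05 and -0.01). Both pioglitazone calls were close to the threshold. The albumin gene Alb (0.08, adjusted p = 0.028) was lost without pioglitazone array 3 (0.12) or 4 (0.109) and with no dye coefficient (0.121). Serpina6, for the corticosteroid-binding globulin (-0.21, adjusted p = 0.0485), was lost when array numbers were blocked (0.101) and without any single pioglitazone array (0.0559 to 0.231). It was also lost without telmisartan array 1 or 4 or irbesartan array 1, 3 or 4 (0.0516 to 0.0662). Serpina6 passed with telmisartan without telmisartan array 3 (-0.24, adjusted p = 0.0321) or irbesartan array 2 (0.0294), and with irbesartan without irbesartan array 2 (-0.25, adjusted p = 0.0204).

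Complement genes, with C3 itself not analysed, gave a split picture. Of 21 tested, 3 rose and 9 fell with pioglitazone, 2 and 7 with telmisartan, and 1 and 7 with irbesartan (medians -0.05, -0.01 and -0.05). The genes of the first component's proteases fell with each drug: C1s1 was at -0.96, -0.48 and -0.49 and C1ra at -0.81, -0.35 and -0.49. C4b, for the component that C1s cleaves, was at -0.95, -0.61 and -0.53. Clu, for the complement inhibitor clusterin, fell too (-0.69, -0.40 and -0.28). Properdin, which stabilises the C3 convertase of the alternative pathway and is encoded by Cfp, rose with pioglitazone (0.81 ± 0.07), telmisartan (0.28 ± 0.07) and irbesartan (0.57 ± 0.07). The telmisartan rise of Cfp had an adjusted p of 0.0076, of 0.0885 with no dye coefficient and of 0.0645 with array weights. The factor B gene Cfb was at 0.07 with pioglitazone (adjusted p = 0.0672), at -0.01 with telmisartan (0.89) and fell to -0.22 with irbesartan (9.88e-05). Without pioglitazone array 3 Cfb also passed with pioglitazone (0.09, adjusted p = 0.0482).

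Of 20 cytokines and receptors that drive the response, 13 were tested, and 1 rose and 6 fell with pioglitazone, 0 and 6 with telmisartan, and 0 and 5 with irbesartan (medians -0.09 for each drug). The Toll-like receptor gene Tlr2 fell most within the list with each drug (-1.09 ± 0.04, -0.65 ± 0.04 and -0.63 ± 0.04). Tlr4, for the endotoxin receptor, fell by 0.35, 0.43 and 0.49, and Il1r1, for the interleukin-1 receptor, by 0.32, 0.23 and 0.44. The telmisartan call of Il1r1 was lost with no dye coefficient (adjusted p = 0.129). Osmr, for the oncostatin M receptor, fell with telmisartan (-0.57) and irbesartan (-0.59) but was at -0.08 with pioglitazone (adjusted p = 0.0955). Osmr passed with pioglitazone with a dye coefficient for each drug (-0.08, adjusted p = 0.0274) and with array weights (-0.09, adjusted p = 0.0491). The cytokine gene Tnf was at 0.11, 0.05 and -0.02 and did not pass with any drug, although it passed with pioglitazone without pioglitazone array 2 (0.16, adjusted p = 0.0137). The interleukin-6 gene Il6 had too few values to be tested.

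Of 15 tested transcription factors and feedback genes, 2 rose and 10 fell with pioglitazone, 1 and 8 with telmisartan, and 3 and 7 with irbesartan (medians -0.20, -0.12 and -0.05). Each call was under 1.5-fold. Cebpd, which is induced in the acute phase, fell with all drugs (-0.35, -0.42 and -0.46), and Cebpb, for its partner NF-IL6, rose with all (0.36, 0.27 and 0.15), a call lost for irbesartan with no dye coefficient (adjusted p = 0.202). Cebpa, the factor of differentiated fat and liver cells, fell with pioglitazone (-0.39) and rose with irbesartan (0.20, adjusted p = 0.00199, or 0.185 with no dye coefficient). With telmisartan it was at -0.12 (adjusted p = 0.0221), a call lost without telmisartan array 1 (0.136) or 3 (0.0606), with no dye coefficient (0.369) and with scaled arrays (0.0566). Stat3, which carries the interleukin-6 signal, fell by 0.34, 0.32 and 0.37. Nfkbiz, for an inducible NF-kappaB cofactor, rose with pioglitazone (0.47) and irbesartan (0.18) and was at -0.03 with telmisartan.

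Camp shares neutrophil granules and host defence with a further list, of which 14 of 21 genes were tested. With pioglitazone 3 rose and 2 fell, with telmisartan 0 and 2, and with irbesartan 0 and 2 (medians 0.01, -0.04 and 0.02). S100a8, for a calcium-binding alarmin, was the gene past 1.5-fold: it fell by 1.39 ± 0.06, 0.82 ± 0.06 and 0.63 ± 0.06. S100a9, for the partner of the S100a8 protein, was at 0.09, 0.02 and 0.12 and did not pass with any drug. Without telmisartan array 2 it passed with each (0.09, -0.11 and 0.12). Prtn3, for proteinase 3, which in humans cleaves cathelicidin to its active peptide, fell by 0.41, 0.27 and 0.16. Ltf, for the granule protein lactoferrin, was at 0.01, -0.06 and 0.02.

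Receptors and partners of the proteins included 10 tested genes, of which 4 rose and 2 fell with pioglitazone, 3 and 1 with telmisartan and 3 and 2 with irbesartan (medians 0.08, 0.04 and -0.00). Hmox1, for the haem oxygenase that degrades haem taken up with haptoglobin or haemopexin, rose by 0.79, 0.97 and 0.31. Lrp1, for a receptor that takes up haemopexin with its haem, fell by 0.91, 0.72 and 0.59. Scarb1, for a receptor of high-density lipoprotein and serum amyloid A, rose by 0.52, 0.39 and 0.43. Tnfaip6, for a hyaluronan-binding protein that pairs with pentraxin 3, fell with pioglitazone (-0.32) and irbesartan (-0.26) and was at -0.07 with telmisartan.

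**Figure D4:**
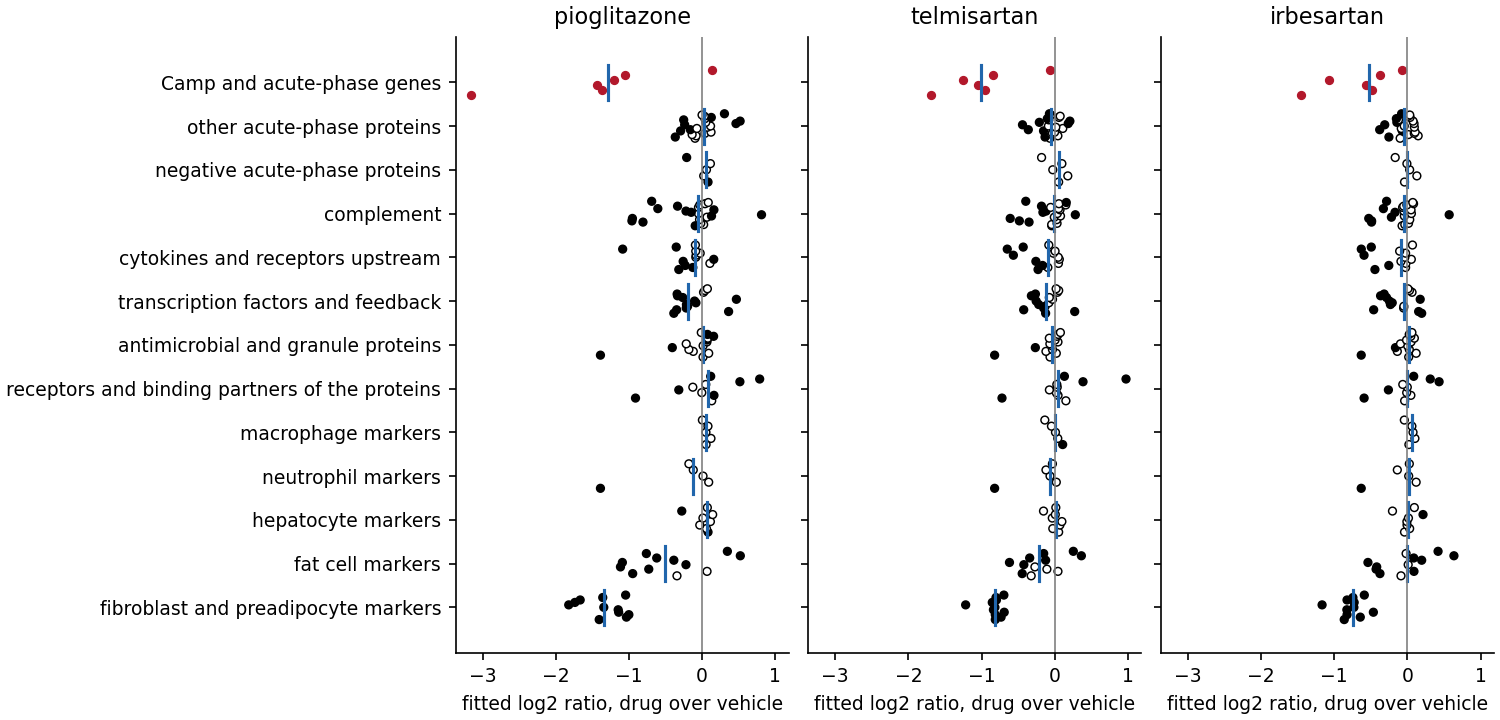
Fitted log2 ratios of list genes with each drug, 1 point per tested gene, with medians as vertical bars. Filled black points have an adjusted p under 0.05, and red points are the 6 genes described, shown with no test. The other acute-phase genes lie between -0.37 and 0.52 with pioglitazone, and all 11 fibroblast and preadipocyte markers lie below -0.46 with each drug.

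Markers of cell types moved beside these genes. All 11 tested fibroblast and preadipocyte markers, of 15 listed, fell with each drug, with medians of -1.34, -0.81 and -0.74. Dcn, for the matrix proteoglycan decorin, was the lowest of them (-1.82, -1.22 and -1.17). Of the listed markers not tested, Thy1 had mean ratios of 0.08, -0.52 and 0.04 on 4, 2 and 4 arrays. Cd34 had means of -1.15, -0.16 and 0.18 on 1, 2 and 1 arrays, and Fap was at 0.09 on 4 irbesartan arrays. Of 12 tested fat cell markers 2 rose and 8 fell with pioglitazone, 2 and 6 with telmisartan, and 5 and 4 with irbesartan (medians -0.50, -0.21 and -0.00). Among the falls, Lipe was at -0.22 with pioglitazone and -0.42 with telmisartan, and at 0.01 with irbesartan. A further spot of Lipe, not counted, had mean ratios of 0.12, 0.32 and 0.24, so its spots disagree. Of the 10 neutrophil markers 5 were tested, of which S100a8 fell with each drug and the other 4 did not pass. Among those not tested, Csf3r had mean ratios of 0.46, 0.70 and 0.48 on 4, 2 and 4 arrays. Ngp had means of 0.08, -0.21 and 0.16 on 3, 2 and 4 arrays. Cxcr2 was at -0.02 on 1 telmisartan array and 0.06 on 4 irbesartan arrays, and Mmp8 at 0.60 on 2 irbesartan arrays. Of the 12 macrophage markers 5 were tested, and over the 3 drugs their ratios lay between -0.14 and 0.12. The only call among them was Adgre1 with telmisartan (0.11, adjusted p = 0.0377). Macrophage markers not tested had a wider range. Fcer1g had means of -0.24, -0.60 and -0.11 on 1, 2 and 4 arrays, and Tyrobp of -0.32, -0.21 and 0.16 on 1, 3 and 4. Msr1 had means of 0.07, 0.25 and 0.07 on 2, 1 and 4 arrays. Cd52 was at -0.36 on 2 telmisartan arrays and 0.03 on 4 irbesartan arrays. Of the 10 hepatocyte markers 8 were tested, and over the 3 drugs they lay between -0.28 and 0.21. With pioglitazone Alb rose (0.08, adjusted p = 0.028) and F2 fell (-0.28, adjusted p = 0.0299), with irbesartan Cyp3a11 rose (0.21, adjusted p = 0.0126), and none passed with telmisartan. Ttr, a hepatocyte marker not tested, was at -0.62 on 1 telmisartan array. The part of these markers in the ratios of Camp and the acute-phase genes was not tested, and ratios give no level from which absence of a marker could be read. In such bulk RNA, fewer cells of a type and less RNA per cell cannot be told apart.

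The nearest protein-coding neighbours on the chromosome, looked up after the other values had been seen, gave the local context. Beside Camp on chromosome 9, Nme6 fell with each drug (-0.35, -0.24 and -0.27), and Cdc25a was at 0.19, 0.12 and 0.12. The Cdc25a call with pioglitazone (adjusted p = 0.0164) was lost without pioglitazone array 3 (0.112), and Cdc25a passed with telmisartan without telmisartan array 1 (0.19, adjusted p = 0.0251). Beside the Orm genes, Akna was at -0.025, -0.02 and -0.08, and beside Hp on chromosome 8, Txnl4b was at -0.07, -0.03 and 0.05. Akna and Txnl4b did not pass with any drug. Dhodh, on the other side of Hp, was at 0.12, -0.04 and 0.12. It passed with pioglitazone (adjusted p = 0.00397) and irbesartan (0.00577). Apart from Orm1 and Orm2, which neighbour each other, the lowest ratio within 3 places of Camp, Orm1, Orm2, Hp or Ptx3 with pioglitazone and with telmisartan was that of Rsrc1, near Ptx3 on chromosome 3 (-0.58 and -0.36). With irbesartan Rsrc1 was at -0.17 and Nme6 was the lowest (-0.27). Within 3 places of Lcn2 on chromosome 2, Dnm1 was at -0.65, -0.36 and -0.37 and Slc25a25 at 0.53, 0.29 and 0.39.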

How the data were processed

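RNA of drug-treated and vehicle-treated mouse cells was compared on 12 arrays, 4 per drug. No header states the unit, so the authors' deposited numbers were taken for log10 channel ratios because they centre on 0 and opposite channel orders of a drug had a mean correlation of -0.4815. Array medians lay within 0.00264 of 0, so the values were kept as deposited. Background and dye correction are not given in the sources used here.

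Ratios were turned to drug over vehicle and to log2. The 18218 spots with 1 gene name were used (16 with several and 4159 with none were not), 48 sets of repeat spots were averaged, and of 17782 features the 14808 with values on at least 3 arrays of each drug were tested. limma 3.58.1 in R 4.3.3 fitted a coefficient per drug and a shared dye coefficient, with Benjamini-Hochberg adjustment and two-sided tests. The script was tested on simulated data. Alternatives were the array number as a block, other dye terms, scalings, filters and weights, dye-swap averages, and each array left out. Members and lists were chosen with earlier results of these data known. Named genes are the members, up to 4 passing genes per list by size, a few set regulators and granule genes, and the 3 features most like each member. Not all are described, and Saa1, Saa2, Saa4, other list genes outside this rule and the chromosomal neighbours were chosen after their values were seen.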

Additional observations from a re-analysis of the deposited data

Results flagged for a closer look

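Of 18 sets of 4 arrays, 1 held an array far from the rest: Lcn2 with irbesartan read 0.0464 on array 4, while the other 3 arrays lay between -0.12 and -0.10. The gap was 0.855 of the range, above the 95% critical value of Dixon's test. Chance flags about 5% of such sets.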

How the results depend on the processing

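Over 22 alternatives the ratios of the 6 tested genes over vehicle kept their sign. With arrays scaled to a common spread, 7 of them moved by more than the spread between arrays (Camp to -2.83 with pioglitazone and -1.70 with irbesartan), and Hp between telmisartan and irbesartan turned to 0.051; the cause was not tested. Of 396 differences between drugs under an alternative, 377 kept their call. Fewer features passed with no dye coefficient: 3191 for irbesartan over vehicle (4972 in the fit reported), 814 for pioglitazone against telmisartan (2365), 1021 for pioglitazone against irbesartan (2900) and 250 between the blockers (1575). Scaled arrays gave 1509 and 1561 for the pioglitazone differences, and a dye coefficient for each drug gave 2437 between the blockers. Leaving out 1 array gave 967 to 1917 between the blockers, with 1023 and 967 without telmisartan arrays 1 and 3, and 1016 and 1007 without irbesartan arrays 1 and 4. Array numbers share a channel order, and same-numbered arrays of different drugs had correlations of 0.2335 to 0.498 in their deviations from drug means, close to the 0.2427 to 0.5007 of other numbers in the same channel order, so they were not taken as pairs. With the number as a replicate block 7363, 5968 and 4578 features passed for pioglitazone, telmisartan and irbesartan, and 1960, 2362 and 1056 for the differences. Among differences between drugs of the 6 tested genes, the block changed only the calls of Lcn2 between pioglitazone and either blocker. The 1 analysis added after the data were seen, over all 18089 testable spots, changed no call of the 6 genes. With no intensities, signal over background is unknown.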
